A study of Homo sapiens with 12 samples.

Results

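Ephrins and their Eph receptors, semaphorins with their plexin and neuropilin receptors, Slits with their Robo receptors, and netrins with their receptors are the classical guidance genes, named for steering growing axons. Ephrins are held at the cell surface and bind Eph receptor tyrosine kinases on neighbouring cells, while semaphorins, Slits and netrins act as secreted or surface cues that are read by plexins, neuropilins, Robos and neogenin. Neural crest cells, from which melanocytes derive, use the same cues during migration, and in melanoma the families have been studied for their part in adhesion and invasion. Here they were taken by symbol: every row of the table whose name carries one of the family stems and no hyphen, which gave 49 of the 12616 listed genes. These were 6 ephrins, 7 Eph receptors, 15 semaphorins, 8 plexins, 2 neuropilins, 2 Slits, 3 Robos, 3 netrins and the netrin receptor NEO1, plus UNC50 and UNC5CL, which share letters with the UNC5 netrin receptors but are other genes. DCC and the UNC5 receptors themselves were not among the listed genes.

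The libraries came from MeWo and SkMel28, established human cutaneous melanoma lines, each carrying a doxycycline (Dox) inducible hairpin against MITF, the transcription factor of the melanocyte lineage. In each line 3 libraries came from cells without Dox (0 µg/ml, called control) and 3 from cells given 1 µg/ml Dox, all harvested after 8 days. Dox and the hairpin were always given together, so their effects cannot be told apart, and the labels give EMEM for MeWo and RPMI for SkMel28, so line and medium cannot be told apart either (the study's methods name RPMI more generally). Whether the 3 libraries of a group came from separate cultures is not said, and p-values measure the spread between these libraries, which may be technical. In bulk RNA, fewer expressing cells and less RNA per cell cannot be told apart.

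Values are reads scaled to an effective library size of 1000000. Reads were taken from the 3′ end of transcripts, so that levels of different genes need no scaling to length. Libraries held 2568187 to 3714608 reads, so that 1 read was worth 0.278 to 0.389, and guidance genes took 0.114 to 0.201% of the gene reads. Of the 49 genes, 42 to 48 had a read in a given library, and 7 never exceeded 10 reads in any library (SLIT2, SEMA4G, SEMA6B, NTNG1, NTNG2, NRP1 and PLXNA2). MITF itself stood at 657, 663 and 708 in MeWo control against 451, 354 and 371 with Dox, and at 861, 739 and 792 in SkMel28 control against 575, 578 and 552 with Dox (limma, adjusted p = 6.49e-05 and 0.00705). MeWo Dox replicate 1 stood somewhat apart, with correlations over genes of 0.960 and 0.969 with its fellow replicates, where pairs within the other groups gave 0.979 to 0.985. The 8 melanocyte lineage markers were all listed and summed to 11490 to 13277 in control libraries and to 6706 to 8414 with Dox. PMEL was the largest term, with means of 7450 (MeWo control), 3261 (MeWo Dox), 6562 (SkMel28 control) and 2569 (SkMel28 Dox). MITF, MLANA and TYRP1 also lay lower with Dox in both lines. S100B went the other way in both, with control and Dox means of 62.9 and 248 (MeWo), 510 and 1123 (SkMel28). DCT was higher with Dox only in MeWo (950 and 1790), and TYR and SOX10 had higher Dox means only in SkMel28. Of markers of other cell types, 2 of 6 for fibroblasts (DCN and LUM, whose sum lay between 41.5 and 47.8 in MeWo control, 9.85 and 19.2 in MeWo Dox, 10.9 and 13.3 in SkMel28 control, 6.04 and 8.91 in SkMel28 Dox), 0 of 4 for endothelium, 1 of 4 for keratinocytes (KRT10) and 1 of 4 for leukocytes (CD68) were listed. CD68 was lower with Dox in SkMel28 without overlap, between 78.2 and 101 in the controls against 18.7 and 23 with Dox, and ranged from 132 to 151 and from 57.5 to 147 in MeWo. KRT10 stood at 131 to 153 and 145 to 160 in MeWo and at 86.2 to 104 and 111 to 117 in SkMel28, and the part of these markers in the results was not tested.

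MITF binds E-box sequences such as CACGTG, often with flanking bases as in TCACGTGA, so the start regions of the guidance genes were searched for these letters. RefSeq (GRCh38.p14) gave a window from 250 bases before to 50 after the gene start for 42 of the 49 genes. The extended form TCACGTGA, which reads the same on both strands, was in 0 of these 42 windows, against 1.04% of 27305 windows of all genes and 2.02% of the 9527 windows of listed genes. Its variant TCATGTGA, searched on both strands, was also in 0 of 42, against 1.01% of all windows, and its core CATGTG was in 3 of 42 (7.14%), against 11.2% of all windows and 6.71% of those of listed genes. The core CACGTG, which lies inside TCACGTGA, was in 2 of 42 (4.76%), against 7.44% of all windows and 10.5% of those of listed genes. The 250 bases upstream are shown for SEMA3B and EPHB3, which had the largest rises in MeWo on the log2(value + 1) scale, and for SEMA6D and SEMA4D, which held the 2 matches, with CACGTG in capitals. They lie at chr3:50272869-50273118 (+ strand), chr3:184561535-184561784 (+), chr15:47183839-47184088 (+) and chr9:89495657-89495906 (−), and in GENCODE the SEMA3B and SEMA4D windows fall between exons of longer transcripts of the same gene.
SEMA3B: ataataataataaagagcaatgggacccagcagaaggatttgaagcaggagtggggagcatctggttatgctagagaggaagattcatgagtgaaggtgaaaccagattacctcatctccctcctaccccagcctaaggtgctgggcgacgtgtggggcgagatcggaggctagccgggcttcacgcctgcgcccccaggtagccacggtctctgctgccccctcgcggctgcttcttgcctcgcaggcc
EPHB3: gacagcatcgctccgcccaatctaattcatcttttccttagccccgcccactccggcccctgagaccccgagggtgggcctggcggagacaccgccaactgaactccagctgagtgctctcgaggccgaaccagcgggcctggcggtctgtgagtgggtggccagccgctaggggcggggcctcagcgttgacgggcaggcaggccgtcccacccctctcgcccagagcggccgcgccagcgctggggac
SEMA6D: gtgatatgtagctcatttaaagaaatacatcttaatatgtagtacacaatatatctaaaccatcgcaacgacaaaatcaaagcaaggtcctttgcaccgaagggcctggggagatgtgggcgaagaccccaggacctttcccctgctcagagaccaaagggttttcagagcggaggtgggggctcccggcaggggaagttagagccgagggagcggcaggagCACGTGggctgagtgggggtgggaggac
SEMA4D: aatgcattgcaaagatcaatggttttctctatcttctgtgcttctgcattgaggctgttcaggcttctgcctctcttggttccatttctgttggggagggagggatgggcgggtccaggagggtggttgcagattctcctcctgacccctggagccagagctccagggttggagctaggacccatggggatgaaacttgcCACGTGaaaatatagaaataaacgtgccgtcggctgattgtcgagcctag
A match is a description of the letters and not a binding site. SEMA6D was called lower and SEMA4D higher with Dox, each in 1 line, and the windows of SEMA3B and EPHB3 held no core.

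With Dox, 20 of the 49 guidance genes were called in MeWo (limma on log2(value + 1), Benjamini-Hochberg adjusted p under 0.05), 14 higher and 6 lower, where 16.7% of all listed genes were called (8.58% higher and 8.12% lower). In SkMel28 14 were called, 11 higher and 3 lower, against 10.9% of all genes (5.88% higher and 5.04% lower). The median log2 change of the guidance genes was 0.20 in MeWo and 0.18 in SkMel28, beside 0.00 for all genes in both lines. The Dox libraries lay wholly above the controls for 16 guidance genes and wholly below for 6 in MeWo (28.8% of all genes had no overlap there), and for 19 and 6 in SkMel28 (32.3%). Genes were listed only if they reached a value of 1 in 3 libraries, so a gene present in a single group could enter only by differing. The listing of 6 guidance genes would have been lost without 1 group, which was MeWo Dox for SLIT2, NTNG2 and NRP1, SkMel28 control for PLXNA2 and either MeWo group for UNC5CL and NTNG1. Among the other 43 the calls were 18 in MeWo and 14 in SkMel28. With UNC50 and UNC5CL set aside, which were called in neither line, the counts were 20 and 14 of 47. Without MeWo Dox replicate 1 the counts were 23 and 18, the fit sharing 1 estimate of the spread over both lines, and without SkMel28 Dox replicate 3 the SkMel28 count was 9. With scaling to the spike-in RNAs, which moved the median of all genes by −0.09 in SkMel28, the count there was 10, 7 higher and 3 lower. EFNA1, EFNB3, EPHB1 and SEMA3A were then not called in SkMel28. The shares of all genes called with a library left out or with spike-in scaling are not given, so these counts are not a result about the guidance genes.

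**Figure D1:**
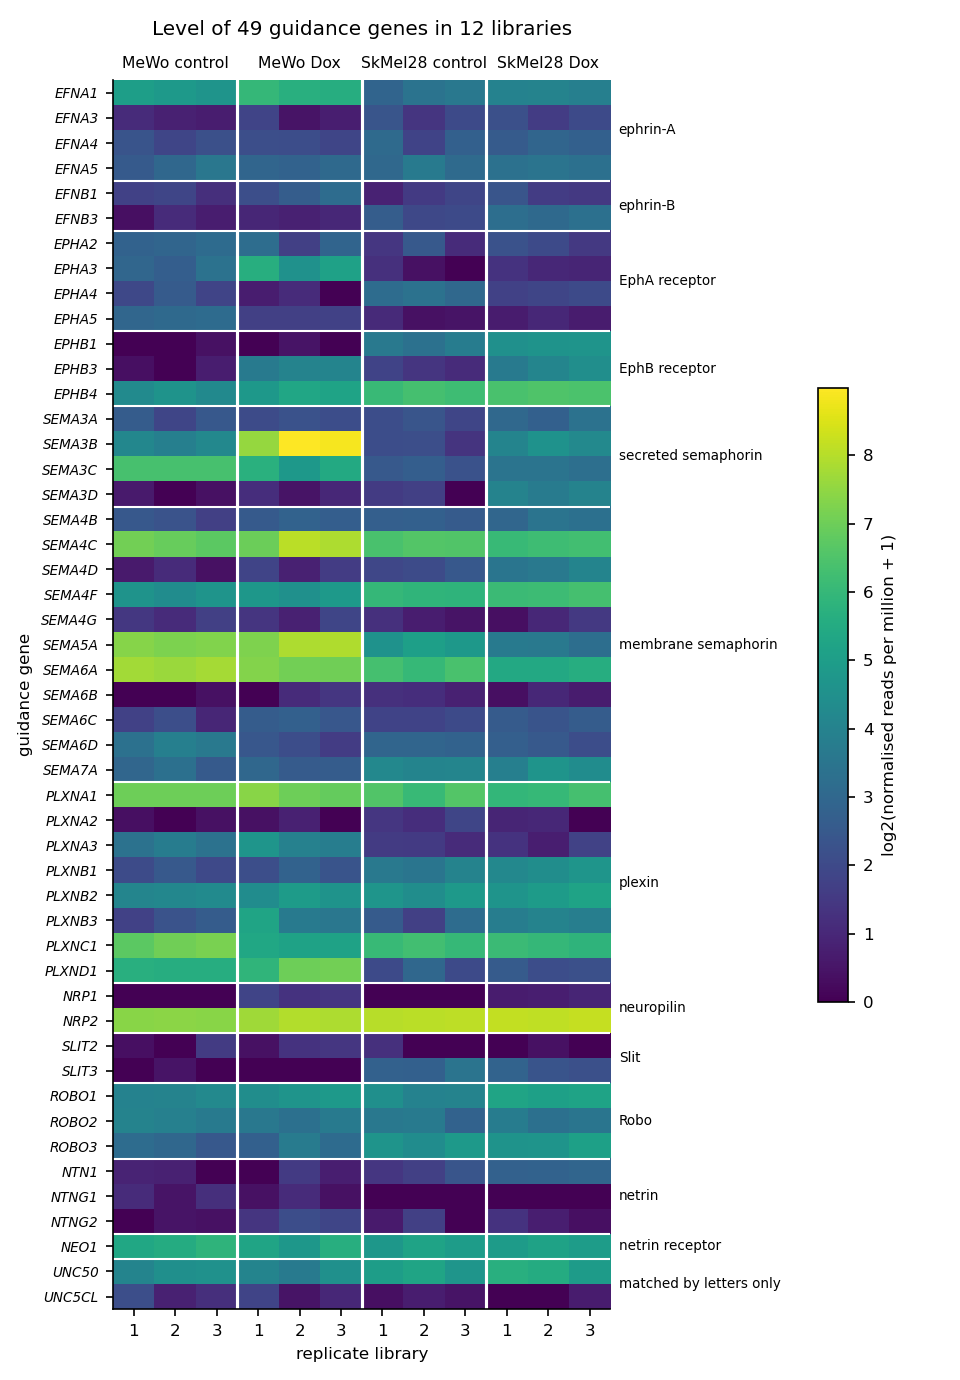
Level of the 49 guidance genes (rows, grouped by role) in each of the 12 libraries (columns, by group and replicate), as log2(value + 1), where a value is reads per 1000000. SEMA3B in the MeWo Dox libraries, at values of 187 to 507, reaches the brightest cells of the plot, and NRP1 is dark in all 6 control libraries.

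In both lines together 8 guidance genes were called, against 4.08% of all genes, and 7 of the 8 moved in the same direction: EFNA1, EPHB3, SEMA3B, PLXNB3 and ROBO1 rose, and EPHA4 and SEMA6A fell. Of all 515 genes called in both lines, 467 moved in the same direction, a like share. SEMA3C moved in opposite directions. Another 12 were called in MeWo and not in SkMel28, 6 in SkMel28 and not in MeWo, and 23 in neither. Across the 49 genes the changes in the 2 lines had a Pearson r of 0.58, beside 0.26 over all listed genes. Over the 28 guidance genes with a mean of at least 5 it was 0.70, and all listed genes at that level were not computed for comparison. These are correlations across genes, which share libraries and are not independent replicates.

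**Figure D2:**
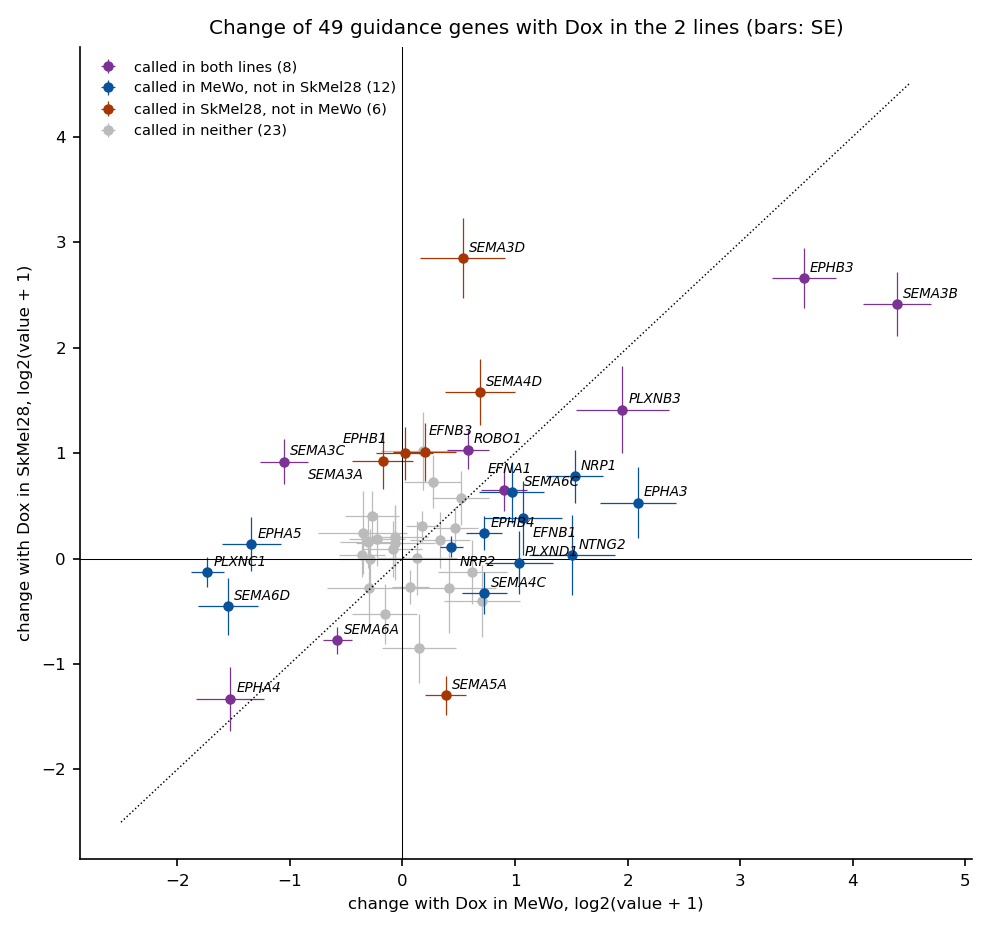
Change with Dox in SkMel28 (y axis) against that in MeWo (x axis) for the 49 guidance genes, both as differences of log2(value + 1) with SE bars, coloured by the line in which the gene was called, with the line of equal change dotted. EPHB3 and SEMA3B lie far to the upper right, and SEMA3C alone among genes called in both lines lies in the upper left.

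Among the ephrins, 2 of 6 rose in each line and none fell. EFNA1, a membrane-anchored ligand of EphA receptors, stood at 32.3, 28 and 24 in MeWo control and at 62.2, 50 and 47.8 in MeWo Dox. In SkMel28 it went from 6.4, 9.84 and 11.1 to 14.8, 15 and 13.9. The Dox libraries lay above the control libraries in both lines, and EFNA1 rose on the log2 scale by 0.90 in MeWo (SE 0.20, limma adjusted p = 0.00475) and by 0.65 in SkMel28 (SE 0.20, adjusted p = 0.0447). The SkMel28 call was lost on leaving out any one library of the line except control replicate 3, or any one MeWo control library, with adjusted p = 0.0529 to 0.205, and under 7 alternatives with all libraries, edgeR and DESeq2 among them (0.0584 to 0.17).

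The transmembrane ephrins each rose in 1 line. EFNB1 stood at 2.30, 2.72 and 1.30 in MeWo control and at 3.51, 5.31 and 8.13 with Dox, without overlap (log2 change 1.07, SE 0.35, limma adjusted p = 0.0432). In SkMel28 its groups overlapped, at means of 1.81 ± 0.93 and 2.66 ± 1.30 (SD, n = 3). EFNB3 stood at 5.29, 2.86 and 3.07 in SkMel28 control and at 8.61, 7.35 and 9.07 with Dox (log2 change 1.01, SE 0.28, limma adjusted p = 0.0258), while in MeWo it held at most 3 reads in any library. Both calls rested on few reads. That of EFNB1 was lost on leaving out any MeWo control, MeWo Dox replicates 2 or 3, SkMel28 control replicate 2 or SkMel28 Dox replicate 2 (adjusted p = 0.0521 to 0.194), and under 5 alternatives with all libraries, DESeq2 among them (0.0543 to 0.119). That of EFNB3 was lost on leaving out SkMel28 control replicates 2 or 3 or any SkMel28 Dox library (0.0541 to 0.103), and in DESeq2 (0.0982), with spike-in scaling (0.0793) and with a pseudocount of 0.1 (0.132). EFNA3, EFNA4 and EFNA5 were called in neither line, with means between 0.86 and 9.43 in every group. EFNA4, EFNA3 and EFNA1 lie side by side within 71.2 kb of chromosome 1 (155063737 to 155134899), and of the 3 EFNA1 was the one called with Dox.

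The Eph receptor kinases moved in both directions. EPHB3 (chromosome 3, 184561785 to 184582408, + strand, hg38) went in MeWo from 0.29, 0.00 and 0.65 in control, 3 reads in all, to 12.1, 15.2 and 15.6 with Dox, 124 reads in all. In SkMel28 it went from 2.51, 1.59 and 1.15 to 12.2, 16 and 20.9. No Dox library overlapped a control library in either line. The log2 changes were 3.56 (SE 0.28, limma adjusted p = 1.51e-07) and 2.66 (SE 0.28, adjusted p = 8.41e-06), and the ratio of pooled MeWo reads was 43.3 (95% counting interval 14.5 to 213). The means with Dox were 14.3 ± 1.88 in MeWo and 16.4 ± 4.35 in SkMel28, and the difference between the changes was not called (0.91, SE 0.40, adjusted p = 0.168).

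EPHA4, which binds ephrins of both classes, fell in both lines. It stood at 2.88, 5.05 and 2.59 in MeWo control and at 0.64, 1.14 and 0.00 with Dox, and at 8.07, 9.52 and 7.28 in SkMel28 control and 2.37, 2.67 and 3.02 with Dox. All Dox libraries lay below all control libraries of their line. The log2 changes were −1.53 (SE 0.30, limma adjusted p = 0.00192) and −1.33 (SE 0.30, adjusted p = 0.00784), and in MeWo pooled reads were 5.92 times as many without Dox (31 against 5 reads, counting interval 2.28 to 19.5). The MeWo call was lost with each line fitted alone (adjusted p = 0.055) and the SkMel28 call with a pseudocount of 0.1 (0.178).

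**Figure D3:**
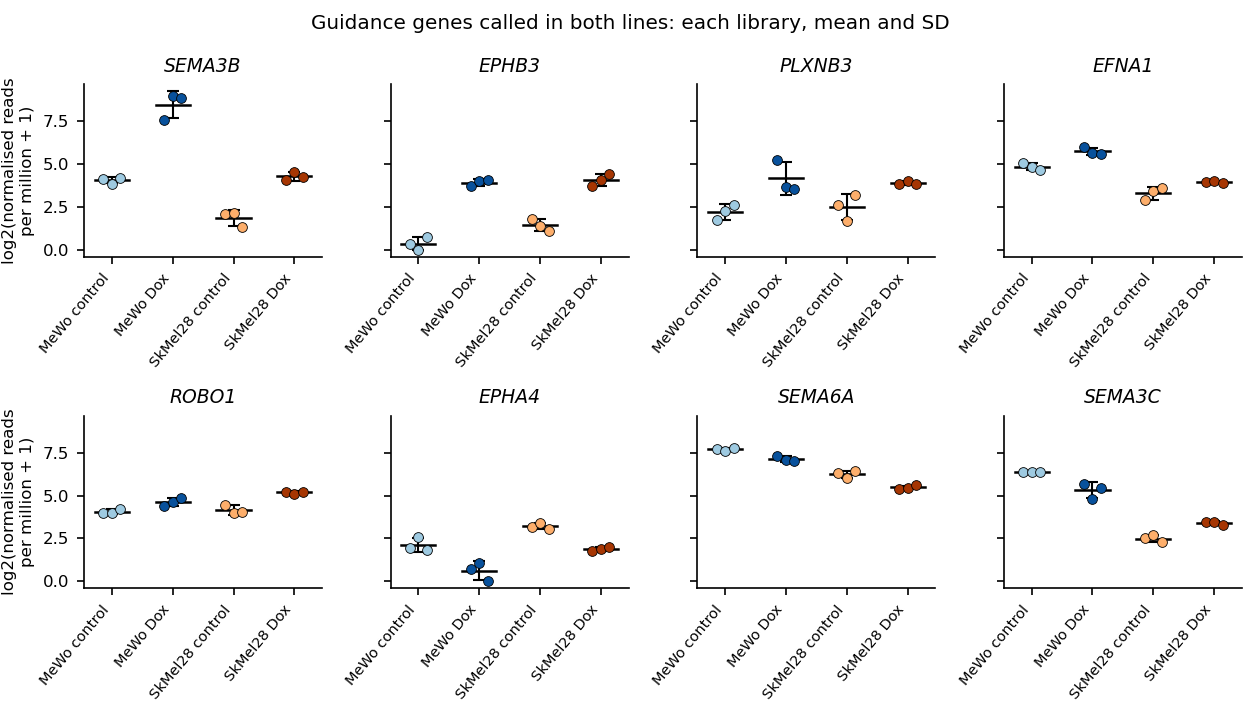
The 8 guidance genes called in both lines, with each library as a point, the mean of 3 as a bar and the SD as whiskers, on a log2(value + 1) axis shared by all panels, a value being reads per 1000000. EPHB3 lies near 0 in MeWo control, and SEMA3C falls in MeWo and rises in SkMel28.

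EPHA3 and EPHA5 were called in MeWo, where they went opposite ways. EPHA3 stood at 6.91, 5.44 and 9.39 in MeWo control and at 48.2, 22.4 and 34.5 with Dox, well clear of the controls (log2 change 2.09, SE 0.34, limma adjusted p = 0.00033). EPHA5 stood at 6.91, 7.38 and 7.77 and at 2.23, 2.27 and 2.37, tight groups that did not overlap (−1.34, SE 0.26, adjusted p = 0.00164). In SkMel28 both were near 0, reaching at most 1.48. The change of EPHA5 differed between the lines (−1.48, SE 0.37, adjusted p = 0.0228) and that of EPHA3 was not called as different (1.56, SE 0.48, adjusted p = 0.0567). The difference for EPHA3 was called with a pseudocount of 5, spike-in scaling or a replicate block (limma adjusted p = 0.00273 to 0.0442). It was also called without MeWo Dox replicate 2 (0.0354) or SkMel28 control replicate 3 (0.0414). EPHA5 overlaps EPHA5-AS1 on the opposite strand, and the strand used for counting is not given, so their reads may not be separable. The difference for EPHA5 was lost on leaving out MeWo control replicates 2 or 3, SkMel28 control replicates 2 or 3 or SkMel28 Dox replicate 2 (adjusted p = 0.0538 to 0.0659), and in edgeR, with a pseudocount of 0.1, with spike-in scaling and with a replicate block (0.0536 to 0.183).

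EPHB1 was close to absent from MeWo, with 1 read over the controls and 1 over the Dox libraries. In SkMel28 it stood at 11.4, 9.2 and 12.6 in control and at 21.7, 23.4 and 23.9 with Dox, without overlap (log2 change 1.00, SE 0.25, limma adjusted p = 0.0162). This call was lost without SkMel28 control replicate 2, Dox replicate 2 or Dox replicate 3 (adjusted p = 0.0524 to 0.0694), with spike-in scaling (0.0645) and with a pseudocount of 0.1 (0.381). EPHB4, a receptor for ephrin-B2, was the most abundant Eph receptor in the SkMel28 groups and in MeWo control. It stood at 18.7, 23.3 and 18.1 in MeWo control and at 26.8, 39.0 and 36.2 with Dox (0.73, SE 0.16, adjusted p = 0.00408, lost with each line fitted alone at 0.0859), and at 73.4 ± 6.88 and 86.9 ± 2.51 in SkMel28, where the difference was not called (0.24, adjusted p = 0.385). It overlaps SLC12A9 on the opposite strand. EPHA2 was not called in either line (−0.35 and 0.24).

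The 4 secreted, class 3 semaphorins, which signal through neuropilins and plexins, all rose in SkMel28, while in MeWo 1 rose, 1 fell and 2 were not called. Their sum was 102 ± 3.49 without and 430 ± 163 with Dox in MeWo, and 12.2 ± 3.73 and 50.1 ± 1.75 in SkMel28 (SD, n = 3). SEMA3B (chromosome 3, 50267558 to 50277546, + strand) stood at 16.7, 13.6 and 17.5 in MeWo control and at 187, 507 and 461 with Dox, and at 3.34, 3.49 and 1.53 in SkMel28 control and 15.7, 22.7 and 17.8 with Dox. The lowest MeWo Dox library was replicate 1, and it still lay above all MeWo controls. SEMA3B rose 24.2-fold between means in MeWo, the largest rise of the guidance genes there on the log2(value + 1) scale (4.39, SE 0.31, limma adjusted p = 2.82e-08). In SkMel28 the change was 2.41 (6.73-fold, SE 0.31, adjusted p = 4.6e-05), and the difference between the lines was called (1.98, SE 0.43, adjusted p = 0.0114), though not in edgeR (0.0687) or with a pseudocount of 0.1 (0.0616).

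SEMA3C went opposite ways. Its 3 MeWo control libraries stood at 81.8, 81.6 and 81.3 and the Dox libraries at 51.1, 26.5 and 43.0, while SkMel28 went from 4.73, 5.39 and 3.83 to 10.1, 10.0 and 8.76. Groups overlapped in neither line. SEMA3C fell by 1.05 on the log2 scale in MeWo (SE 0.21, limma adjusted p = 0.00229) and rose by 0.92 in SkMel28 (SE 0.21, adjusted p = 0.00878), and the changes differed by −1.97 (SE 0.30, adjusted p = 0.000995), a difference that was called under every alternative run. The SkMel28 call was lost without SkMel28 control replicate 3 (0.81, adjusted p = 0.0503) and the MeWo call with each line fitted alone (0.055). The Dox means were 40.2 ± 12.5 in MeWo and 9.63 ± 0.75 in SkMel28.

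SEMA3D stood at 1.95, 2.22 and 0.00 in SkMel28 control, 14 reads in all, and at 15.1, 12.4 and 15.4 with Dox, 139 reads (log2 change 2.85, SE 0.38, limma adjusted p = 7.63e-05). In MeWo it held 3 and 8 reads. The changes differed by −2.31 (SE 0.54, adjusted p = 0.0154), but not in edgeR (0.433), which works on counts, or with a pseudocount of 0.1 (0.274). SEMA3A stood at 3.34, 4.13 and 2.68 in SkMel28 control and at 7.12, 5.68 and 9.37 with Dox (0.93, SE 0.27, adjusted p = 0.0339), and at means of 4.15 ± 1.28 and 3.46 ± 0.31 in MeWo. Its call was lost without SkMel28 control replicates 1 or 3 or Dox replicates 1 or 3 (adjusted p = 0.0851 to 0.137), and under 5 alternatives with all libraries, DESeq2 and spike-in scaling among them (0.0519 to 0.0783). SEMA3C, SEMA3A and SEMA3D lie in this order within 4.445 Mb of chromosome 7 (80742538 to 85187056), and SEMA3B lies on chromosome 3.

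Of the 11 membrane semaphorins, 2 rose and 2 fell in MeWo, and 1 rose and 2 fell in SkMel28. SEMA6A, a transmembrane ligand of class A plexins, was the most abundant guidance gene of MeWo control, at 214, 198 and 219, and stood at 158, 135 and 130 with Dox. In SkMel28 it went from 79.9, 64.1 and 84.3 to 41.6, 42.1 and 47.7. It fell without overlap in both lines, by 33.0% (log2 −0.58, SE 0.13, limma adjusted p = 0.00535) and 42.4% (−0.78, SE 0.13, adjusted p = 0.000725). With scaling to the spike-in RNAs, which moved the median gene by 0.26 in MeWo, the MeWo value was −0.31 and was not called (adjusted p = 0.266). SEMA6A overlaps SEMA6A-AS1 on the opposite strand, which was near 0.

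SEMA5A, which carries thrombospondin repeats, fell in SkMel28 from 23.1, 32.4 and 26.8 to 11.9, 11.4 and 8.46 (log2 −1.30, SE 0.18, limma adjusted p = 0.000136). In MeWo it stood at 164, 147 and 157 in control and at 151, 233 and 240 with Dox. Replicate 1 lay among the controls there and the others above them, and the MeWo change of 0.39 was not called (adjusted p = 0.163) unless replicate 1 was left out (0.60, adjusted p = 0.00737). The changes differed by 1.68 (SE 0.26, adjusted p = 0.00102), and this was called under every alternative run. SEMA4C showed a like split of the MeWo Dox libraries, at 124, 263 and 233 against 132, 119 and 106 in control, and was called there although the groups overlapped (0.73, SE 0.20, adjusted p = 0.0185). In SkMel28 it stood at 89.8 ± 5.30 and 71.4 ± 4.77 (−0.33, adjusted p = 0.35), and the changes differed by 1.05 (SE 0.28, adjusted p = 0.0322). The MeWo call was lost without MeWo control replicates 2 or 3 or Dox replicates 2 or 3 (adjusted p = 0.0621 to 0.097), and the difference was lost without any of these, SkMel28 control replicates 2 or 3 or SkMel28 Dox replicates 1 or 2 (0.0708 to 0.0914). Without the variance trend neither was called (0.0616 and 0.0906), nor was the MeWo change with each line fitted alone (0.192).

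SEMA4D, a ligand of PLXNB1, rose in SkMel28 from 2.78, 3.17 and 4.60 to 10.4, 11.4 and 15.7 (log2 1.58, SE 0.31, limma adjusted p = 0.0027). In MeWo it held 6 reads in control and 16 with Dox, with overlap, and was not called (0.69, adjusted p = 0.142). SEMA6D fell in MeWo from 9.21, 13.6 and 11.3 to 4.47, 3.41 and 2.03 (−1.55, SE 0.27, adjusted p = 0.000589), and in SkMel28 stood at 6.49 ± 0.31 and 4.55 ± 1.16 (−0.45, adjusted p = 0.329). Neither overlapped between the groups in the line where it was called. SEMA6C stood at 2.30, 3.50 and 0.97 in MeWo control and at 5.11, 5.69 and 4.40 with Dox (0.97, SE 0.29, adjusted p = 0.0283), a call lost without MeWo control replicates 1 or 3 or Dox replicates 2 or 3 (0.0524 to 0.154), in DESeq2 (0.09) and with each line fitted alone (0.14). In SkMel28 it was also higher with Dox without overlap, at 2.70 ± 0.31 and 4.73 ± 0.63, and was not called (0.63, limma adjusted p = 0.193). SEMA4B, SEMA4F, SEMA4G, SEMA6B and SEMA7A were called in neither line.

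Plexins and neuropilins, the receptors of semaphorins, gave 5 calls of 10 in MeWo, where 16.7% of all genes were called. NRP1, among the 5, was listed through MeWo Dox, so its call is no test. In SkMel28 1 of the 10 was called, near the 10.9% of all genes. PLXNC1 (chromosome 12, 94148577 to 94307675, + strand), the receptor of SEMA7A, stood at 105, 130 and 143 in MeWo control and at 39.9, 35.2 and 35.6 with Dox, but at 64.9, 76.5 and 64.0 in SkMel28 control and 69.2, 62.8 and 55.9 with Dox. The MeWo groups were far apart and the SkMel28 groups overlapped. It fell by 70.7% in MeWo (log2 −1.73, SE 0.14, limma adjusted p = 2.24e-07), was not called in SkMel28 (−0.13, 95% interval −0.41 to 0.15, adjusted p = 0.663), and the changes differed by −1.61 (SE 0.20, adjusted p = 0.000178) under every alternative run. PLXNC1 overlaps CEP83 on the opposite strand, which was not called in MeWo. Its ligand gene SEMA7A stood at 6.90 ± 2.04 and 5.68 ± 1.17 in MeWo.

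PLXNB3, a class B plexin, stood at 2.30, 3.89 and 5.18 in MeWo control and at 37.3, 11.7 and 10.8 with Dox, replicate 1 lying well above its fellows. In SkMel28 it went from 5.01, 2.22 and 8.05 to 13.1, 15.4 and 13.3. The groups were apart in both lines (log2 1.95, SE 0.41, limma adjusted p = 0.00326, and 1.41, SE 0.41, adjusted p = 0.0352). The SkMel28 call was lost without SkMel28 control replicates 1 or 2, any SkMel28 Dox library or MeWo control replicate 2 (adjusted p = 0.0509 to 0.167), and under 4 alternatives with all libraries (0.0542 to 0.0728), and the MeWo call with each line fitted alone (0.0865). PLXND1 stood at 49.8, 47.4 and 47.0 in MeWo control and at 58.1, 127 and 132 with Dox, where replicate 1 lay nearest the controls (1.03, SE 0.30, adjusted p = 0.0247), a call lost without any MeWo control or Dox replicates 2 or 3 (0.0612 to 0.128), without the variance trend (0.0545) and with each line fitted alone (0.12). PLXNA1, PLXNA2, PLXNA3, PLXNB1 and PLXNB2 were called in neither line. PLXNB1 was higher with Dox in SkMel28 without overlap, at 12.3 ± 2.70 and 21.0 ± 3.82 (limma adjusted p = 0.0796). It was called there in edgeR (0.0355), with a pseudocount of 5 (0.0313) and without MeWo Dox replicate 1 (0.0495). PLXNB2 was called in MeWo with spike-in scaling (limma adjusted p = 0.0282) and without MeWo Dox replicate 1 (0.0277).

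NRP1, a co-receptor for class 3 semaphorins and VEGF, was listed at 0 in all 6 control libraries. It stood at 2.55, 1.52 and 1.69 in MeWo Dox, 17 reads in all, and at 0.59, 0.67 and 0.91 in SkMel28 Dox, 7 reads. Set against a floor of 3 reads per library (1.17), MeWo Dox was at least 1.65-fold higher, while SkMel28 stayed under the floor and was not called (limma adjusted p = 0.0552). NRP1 reached 1 in the MeWo Dox libraries alone and was listed through them, so it had to differ there, and its MeWo values are a description with no test. Floors and counting intervals cover counting error only. NRP2 was abundant throughout, at 168, 171 and 166 in MeWo control and 206, 244 and 233 with Dox (0.43, SE 0.10, adjusted p = 0.00657), and at 264 ± 7.82 and 285 ± 8.03 in SkMel28 (0.11, adjusted p = 0.572).

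**Figure D4:**
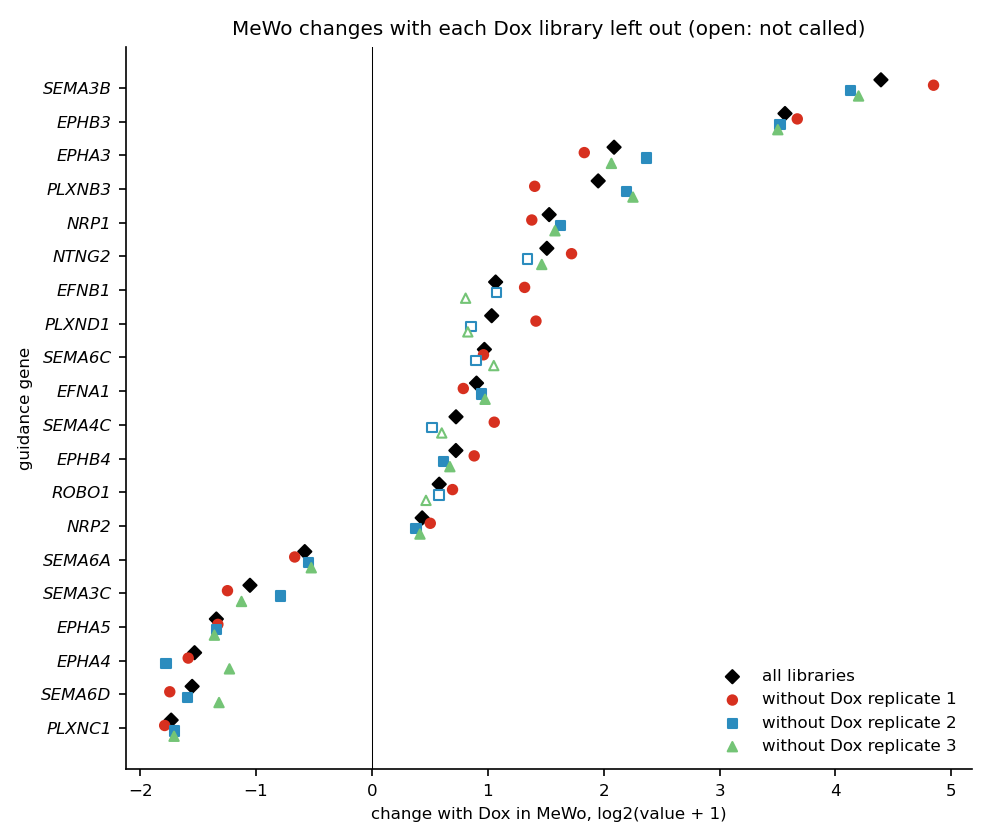
Change with Dox in MeWo, as log2(value + 1), for the 20 guidance genes called there, with all libraries (diamonds) and without each MeWo Dox library in turn, open symbols marking fits in which the gene was not called. EFNB1, PLXND1, SEMA4C, SEMA6C, ROBO1 and NTNG2 have open symbols, and none of the 20 changes sign.

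ROBO1, a Slit receptor, rose in both lines. It stood at 14.7, 15.2 and 17.8 in MeWo control and at 20.4, 24.3 and 28.5 with Dox, and at 21.2, 14.9 and 15.3 in SkMel28 control and 36.8, 33.8 and 36.6 with Dox. No groups overlapped within a line. The log2 changes were 0.58 (SE 0.18, limma adjusted p = 0.0384) and 1.03 (SE 0.18, adjusted p = 0.00114). The MeWo call was lost without any MeWo control, MeWo Dox replicates 2 or 3 or any SkMel28 Dox library (adjusted p = 0.0507 to 0.164), with a replicate block (0.0503) and with each line fitted alone (0.116). ROBO2, ROBO3, SLIT2 and SLIT3 were called in neither line, and SLIT3 was at 4.62 to 7.17 on average in the SkMel28 groups with 1 read in all of MeWo.

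Netrins were low throughout. NTNG2, a membrane-anchored netrin, stood at 0.00, 0.39 and 0.32 in MeWo control, 2 reads, and at 1.60, 3.41 and 2.71 with Dox, 22 reads, a pooled ratio of 11.5 (counting interval 2.83 to 101). Its listing needed the MeWo Dox libraries, so these values too are a description with no test. NTN1 stood at 2.70 ± 1.34 in SkMel28 control and 6.2 ± 0.39 with Dox, without overlap, and was not called (1.02, limma adjusted p = 0.0953). With a pseudocount of 5 (0.0153) or without MeWo Dox replicate 1 (0.0409) it was called. NEO1 and NTNG1 were called in neither line.

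Of the difference between the changes of the lines, 7 of the 49 genes were called, against 7.09% of all genes (3.71% positive and 3.38% negative). MeWo had the more positive change for SEMA3B, SEMA4C and SEMA5A and the more negative one for EPHA5, PLXNC1, SEMA3C and SEMA3D. The count was 13 without MeWo Dox replicate 1, and with scaling to spike-ins, which moved the median interaction by 0.35, it was 9, with 6 positive and 3 negative. The shares of all genes under these settings are not given.

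Without Dox the lines themselves differed in 32 of the 49 genes, 17 higher in SkMel28 and 15 higher in MeWo, where 51.4% of all genes were called (26.6% higher and 24.8% lower in SkMel28) and 62.1% had no overlap between the 3 and the 3 libraries. Among the 43 genes whose listing did not rest on 1 group, 30 were called, 16 higher and 14 lower in SkMel28. These 43 still hold EPHB1 and SLIT3, which reached a value of 1 in SkMel28 libraries alone. EFNA3, EFNB3, NTN1, SEMA3D and SEMA6B would also have lost their listing without the SkMel28 libraries, and EPHA5 without the MeWo libraries. Of all these, only SEMA3D was not called between the uninduced lines, so the count of 30 follows in part from the listing. All 7 Eph receptors were among the 32 called, but EPHB1 and EPHA5 were listed through 1 line each, so the 7 is not a test of the family. EPHA2 was not called without SkMel28 control replicate 3 (limma adjusted p = 0.0708) and EPHA4 with a replicate block (0.0533) or a pseudocount of 0.1 (0.136). EPHB3 was not called with a replicate block (0.0515) or a pseudocount of 5 (0.0833). Among genes whose mean reached 10 in 1 of the lines, EPHB1 differed most in favour of SkMel28, at 11.1 ± 1.74 against 0.11 ± 0.19 (log2 3.45), followed by EPHB4 (1.83), ROBO3 (1.75), PLXNB1 (1.54) and SEMA4F (1.36). EPHB1 was listed through the SkMel28 libraries alone, so it had to differ between the lines, and its values are a description with no test. SEMA3C differed most in favour of MeWo, at 81.6 ± 0.24 against 4.65 ± 0.78 (−3.88, adjusted p = 1.1e-10), followed by PLXND1 (−3.27), SEMA5A (−2.47), SEMA3B (−2.20) and PLXNA3 (−2.12). The receptors EPHA3 and EPHA5 were also lower in SkMel28 (−2.46 and −2.41), where the value of EPHA5 is a description with no test, since its listing needed the MeWo libraries. PLXNA3 overlaps LAGE3 on the opposite strand. These contrasts share the control libraries with the Dox contrasts, and line and medium cannot be told apart.

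**Figure D5:**
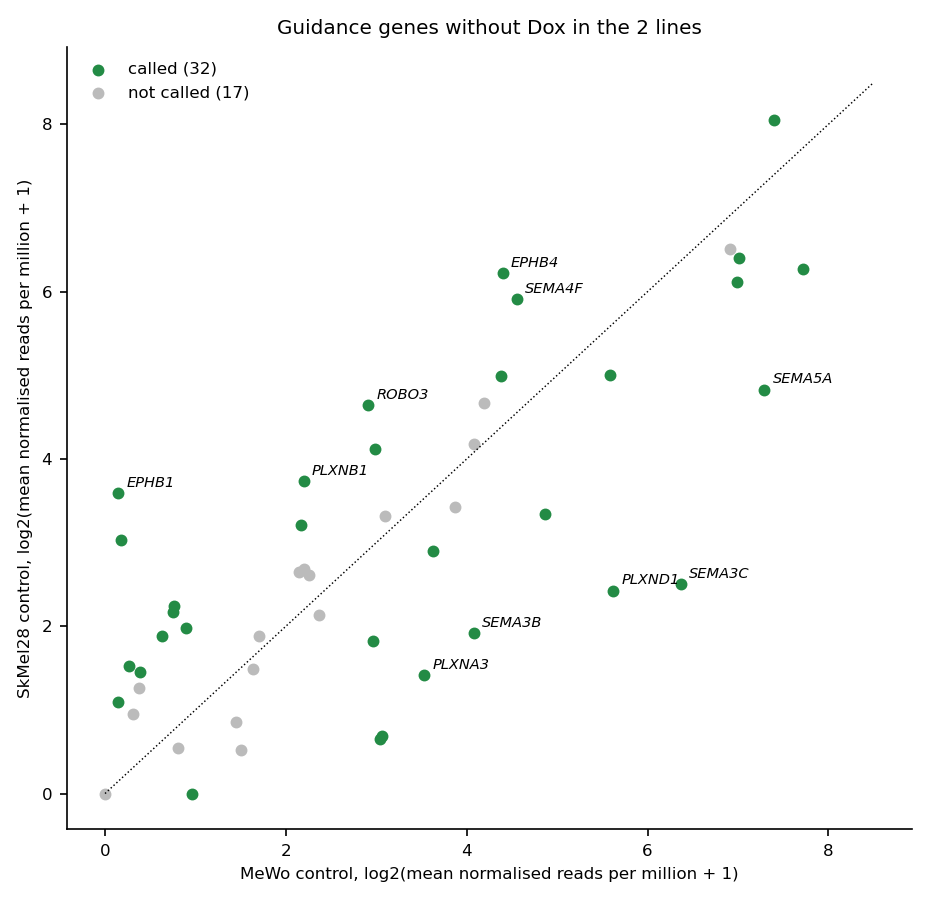
Mean level of the 49 guidance genes in SkMel28 control (y axis) against MeWo control (x axis), as log2(mean value + 1), a value being reads per 1000000, with the line of equal level dotted and the 32 called genes in green. EPHB1 sits near 0 in MeWo and SEMA3C and PLXND1 far below the dotted line.

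Genes that act downstream of or beside these receptors were taken from a list of 85, of which 73 were listed. Of the 73, MeWo gave 19 calls (26.0%, against 16.7% of all genes), 9 of them higher, and SkMel28 gave 13 (17.8%, against 10.9%), 9 of them higher. With scaling to spike-ins the splits were 15 higher and 4 lower in MeWo and 4 higher and 3 lower in SkMel28. This scaling moved the median of all genes by 0.26 in MeWo and −0.09 in SkMel28. The split of all genes under it is not given, so these splits are not a result about the pathway genes. DAG1, the dystroglycan that binds Slit in the matrix, rose in both lines, from 71.8 ± 7.54 to 260 ± 59.6 in MeWo (log2 1.82, SE 0.15, limma adjusted p = 2.91e-07) and from 93.7 ± 9.62 to 231 ± 18.5 in SkMel28 (1.30, SE 0.15, adjusted p = 2.54e-05). MICAL1, an oxidase that takes actin filaments apart below plexins, fell in both, from 116 ± 8.60 to 55.7 ± 18.6 (−1.10, adjusted p = 0.000544) and from 153 ± 10.7 to 70.6 ± 7.24 (−1.11, adjusted p = 0.000746).

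Further members of that list had the largest called changes per line where a group mean reached 10, with limma adjusted p = 1.58e-05 to 0.00419. In MeWo TRIM9, a ubiquitin ligase that binds the netrin receptor DCC, rose from 3.32 ± 1.49 to 14.6 ± 0.94 (log2 1.91), and CRMP1, a cytosolic mediator of semaphorin signals, from 14.1 ± 0.74 to 33.2 ± 4.57 (1.17). L1CAM, an adhesion molecule that associates with neuropilin, fell there from 227 ± 16.3 to 117 ± 41.2 (−1.01) and ABLIM3, an actin-binding protein, from 20.3 ± 2.60 to 10.1 ± 1.45 (−0.94). In SkMel28 DPYSL2, a relative of CRMP1, rose from 12 ± 1.09 to 26.7 ± 4.49 (1.08) and the adhesion molecule NRCAM from 34.8 ± 1.94 to 72.3 ± 1.01 (1.04). VAV3, an exchange factor used by Eph receptors, fell there from 100.5 ± 3.45 to 39.8 ± 3.91 (−1.32) and MYO9B, a myosin that Robo1 inhibits, from 92.3 ± 6.91 to 57.3 ± 4.85 (−0.68).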

How the data were processed

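RNA of 12 libraries (2 lines, with and without Dox, 3 each) was sequenced from the 3′ end (QuantSeq Forward). The deposited values are a normalised signal that the authors made with edgeR: reads of each gene scaled to an effective library size of 1000000. The submitters' processing notes name FastQC 0.11.7, cutadapt 2.8, STAR 2.5.1b, edgeR and the build hg38; the counting tool, annotation and strand are not given in the sources used here. Whole reads and depth were recovered from them, since 100% of values divided by the smallest of their library came out whole (tolerance 0.001 reads). The table lists 12683 features, each reaching 1 in 3 or more libraries, and 67 spike-ins were set aside.

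Values were analysed as log2(value + 1), a scale that understates changes of low genes, with limma 3.58.1 in R 4.3.3 (mean-variance trend, 4 group means, two-sided, Benjamini-Hochberg over 12616 genes per contrast, called at an adjusted p under 0.05). Dox was compared with control per line, the MeWo change with the SkMel28 change, and SkMel28 control with MeWo control. Fold values are ratios of group means. In simulated counts for 12616 genes limma recovered 77% of 2-fold and 99% of 4-fold changes in MeWo and 72% and 99% in SkMel28. The changed genes were drawn only from those with a mean of at least 10 over the uninduced lines. All genes were given the same spread beyond counting, set beforehand. Of the guidance genes, 16 had means of 1 to 10 and 14 lower ones in MeWo control, and 25 and 8 in SkMel28 control. The recovery rates do not cover genes at such levels. Alternatives were edgeR 4.0.16 and DESeq2 1.42.0 on the recovered reads, pseudocounts of 0.1 and 5, a stricter filter (5 in 3 libraries), upper-quartile and spike-in scaling, no trend, a replicate block, each line alone and each library left out. Loci are from GENCODE release 44, which held all 49 genes, 7 of which overlap another listed gene. Per-library values were given for guidance genes called in a Dox contrast or the difference, the 5 largest differences each way between uninduced lines, and the 3 largest rises and falls per line of the other pathway genes. The members, lists and this rule were chosen with earlier results of these data known.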

Additional observations from a re-analysis of the deposited data

Results flagged for a closer look

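For 7 guidance genes the change with Dox differed between the lines by the interaction test (limma, Benjamini-Hochberg adjusted p under 0.05, n = 3 per group). The MeWo change exceeded the SkMel28 change by 1.98 for SEMA3B (adjusted p = 0.0114), by 1.68 for SEMA5A (0.00102) and by 1.05 for SEMA4C (0.0322) on the log2(value + 1) scale. It was the more negative for SEMA3D (−2.31, adjusted p = 0.0154), SEMA3C (−1.97, 0.000995), PLXNC1 (−1.61, 0.000178) and EPHA5 (−1.48, 0.0228). PLXNC1, SEMA3C and SEMA5A were called under every alternative run. SEMA3C was the one gene of the 7 called in both lines in opposite directions. Line and medium cannot be told apart in these differences.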

How the results depend on the processing

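No change of a guidance gene called with all libraries reversed its sign under any alternative. Called under every alternative were 8 of 20 genes in MeWo (EFNA1, EPHA3, EPHA5, EPHB3, NRP2, PLXNC1, SEMA3B and SEMA6D), 7 of 14 in SkMel28 (EPHB3, ROBO1, SEMA3B, SEMA3D, SEMA4D, SEMA5A and SEMA6A), 3 of 7 differences between the lines and 18 of 32 between the uninduced lines. Genes not called in the main fit but called under an alternative numbered 4 in MeWo, 4 in SkMel28, 9 for the differences and 5 between the uninduced lines. Fitting each line alone, which leaves fewer libraries for the spread, called 11 guidance genes in MeWo and 9 of the other pathway genes there. The count of differences was 4 with edgeR and 4 with a pseudocount of 0.1. Scaling to spike-ins left 7 of the other pathway genes in SkMel28, the cause was not tested, and it moved the median gene by 0.26 in MeWo, −0.09 in SkMel28, 0.35 in their difference and 0.14 between the uninduced lines. Without the variance trend the MITF change in SkMel28 (−0.49) was no longer called, its adjusted p rounding to 0.05. With each library left out the counts ran from 15 to 23 in MeWo, 9 (without SkMel28 Dox replicate 3) to 18 (without MeWo Dox replicate 1) in SkMel28, 5 to 13 (without MeWo Dox replicate 1) for the differences and 27 to 35 between the uninduced lines. Deviations of libraries with equal replicate numbers correlated at −0.30, −0.07 and 0.05 in MeWo and −0.10, 0.12 and 0.29 in SkMel28. Unequal numbers gave −0.35 to 0.34. With deviations from means of 3 libraries, these values cannot show whether the libraries were paired. With a replicate block the counts were 18, 11, 7 and 23. The shares of all genes called under these alternatives are not given, so the counts do not set the guidance genes apart from other genes. At this depth a value under 1.17 can rest on 3 reads, so small changes of genes as low as SLIT2, NTNG1 and PLXNA2 were not detectable.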
